A study of Mus musculus with 4 samples.

Results

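The miR-34 family was examined in A3-1 mouse embryonic stem cells. Its members were taken by miRNA name from the array files. All 5 names sought, mmu-miR-34a, mmu-miR-34b-5p, mmu-miR-34b-3p, mmu-miR-34c and mmu-miR-34c*, were present, out of 577 miRNA names on the array. Each was read by 2 probes, so the family accounts for 10 of 1712 probes. A3-1 is an established line, kept here with fetal serum and the self-renewal cytokine LIF. Lin28a, an RNA-binding protein known for blocking let-7 maturation, was knocked down by siRNA in one group (siLin28a), and the control group was given an siRNA to GFP (siGFP). Total RNA was taken after 48 h, with 2 replicates per group, and 100 ng from each was labelled with Cy3 for 1 array. Nothing in the labels says that the replicates came from separate cultures, so every p-value below reflects the scatter of these 4 samples alone, and that scatter may be technical.

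miR-34 miRNAs are known as direct transcriptional targets of the tumour suppressor p53 and as repressors of cell cycle and survival genes. miR-34a is made from its own transcript. miR-34b and miR-34c are cut from a shared transcript at another locus, best known for activity in testis, brain and ciliated epithelia. Each hairpin can give a guide strand from its 5' arm, which carries the family's seed, and a strand from its 3' arm that is usually discarded. In the names of this array, miR-34a and miR-34c are 5' arms and miR-34c* is a 3' arm.

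The mature sequences show which arms share a seed, the stretch at bases 2 to 8 that pairs with targets. They are given 5' to 3' from RefSeq on build GRCm38.p6, with the seed in capitals. Of the 5 members, 4 were matched by name. miR-34c-5p, the arm that the array calls miR-34c, was not matched.
miR-34a-5p: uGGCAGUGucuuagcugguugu
miR-34b-5p: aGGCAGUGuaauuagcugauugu
miR-34b-3p: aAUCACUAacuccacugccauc
miR-34c-3p: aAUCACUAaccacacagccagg
miR-449a-5p: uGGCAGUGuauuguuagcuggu
miR-449c-5p: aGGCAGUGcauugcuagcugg
The 5' arms of miR-34a and miR-34b have the same seed of 7 bases, and miR-449a and miR-449c, from a different locus, have it too. This seed was held by 4 of 1738 mature mouse entries, or 0.230%, a count without the unmatched miR-34c-5p. Compared from the 5' end without gaps, miR-34a and miR-34b-5p had 11 identical bases of 22, 7 of them in the seed. That count understates how alike they are, since miR-34b-5p has 23 bases against 22 and its later bases fall out of register. As printed, both hold the stretch uuagcug, set further along in miR-34b-5p, and both end in uugu. The 3' arms of miR-34b and miR-34c share another seed, which these 2 entries alone held among the 1738, and were identical at 17 of 22 bases.

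The hairpins are shown because LIN28 proteins are known to bind precursor loops, often at a GGAG motif. Mature arms are in capitals, from RefSeq on GRCm38.p6.
Mir34a (chr4:150068454-150068555, plus strand): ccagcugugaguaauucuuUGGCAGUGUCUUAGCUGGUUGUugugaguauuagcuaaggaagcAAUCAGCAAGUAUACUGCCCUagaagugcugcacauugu
Mir34b (chr9:51103562-51103645, minus strand): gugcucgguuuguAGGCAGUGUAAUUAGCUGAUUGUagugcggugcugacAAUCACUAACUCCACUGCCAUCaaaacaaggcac
The letters GGAG, searched on the RNA strand only, occurred 0 times in the hairpins of Mir34a, Mir34b and Mir34c. They occurred in 447 of 1005 mouse hairpins of differing length, or 44.5%, and in 9 of 11 let-7 hairpins.

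In the coordinates of the array files, build mm9, the miR-34a probes target chromosome 4 from 149442584 to 149442603. The 8 probes of the other locus lie within 588 bases of chromosome 9, from 50911149 to 50911736. Targets of miR-34b-5p span 21 and 22 bases, and those of miR-34a and miR-34c 19 and 20. The 3' arms are read by short stretches, of 15 and 16 bases for miR-34b-3p and 13 and 14 for miR-34c*. By RefSeq gene names, Mir34b and Mir34c lie within the spans of Btg4 and Hoatz, while no other gene span covers Mir34a, whose neighbours are Gm13067 and Gpr157. Whether these positions are exonic or intronic was not analysed here.

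The arrays differed in brightness. Spots well above background, the scanner software's flag for a measurable signal, made up 32.5% and 32.9% of all spots for siGFP, and for siLin28a 34.5% and 38.8%. The 75th percentile of probes measurable on all arrays, used here to scale each array, was 226 and 220 intensity units with siGFP and 248 and 265 with siLin28a. Of the 8 embryonic stem cell markers listed, all from the miR-290-295 cluster, 8 were detected on all 4 arrays. No muscle marker of 4 was detected, while 2 of 6 neural markers and 4 of 8 fibroblast or feeder markers went undetected throughout. The summed total gene signal, with no scaling, ran from 316 to 378 with siGFP and 389 to 421 with siLin28a for the fibroblast or feeder list, and from 238 to 270 and 283 to 367 for the neural list. The stem cell list's sum was also larger on the brighter siLin28a arrays, at 66496 to 68970 against 59874 to 60155. After scaling, the median log2 difference was -0.00073 over 3 tested fibroblast or feeder markers, 0.12 over 4 neural ones and -0.016 over the 8 stem cell markers. The part of such cells in the results below was not tested. The array does not measure Lin28a mRNA, so the extent of the knockdown was not analysed here. Across 231 miRNAs tested with limma, 2 were called higher with siLin28a at an adjusted p below 0.05, or 0.866%, and 0 lower. These were let-7f and let-7a, whose log2 differences of 1.17 and 1.12 were taken with both siGFP arrays at the floor described below. No miR-34 member was called.

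miR-34a was the bright member of the family and had the larger signal on both arrays of the Lin28a knockdown. Its total gene signal, the scanner software's sum over the probes of a miRNA with no scaling between arrays, was 430 and 521 in the siGFP pair. In the siLin28a pair it was 829 and 1133. Both siLin28a arrays lay above both siGFP arrays, and the higher of the siGFP pair was well short of the lower of the siLin28a pair. The group means were 476 ± 64.5 (SD, n = 2) and 981 ± 215 (SD, n = 2), and the software's own error for 1 array was 31.0 to 80.8. miR-34a was called detected on all 4 arrays.

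**Figure D1:**
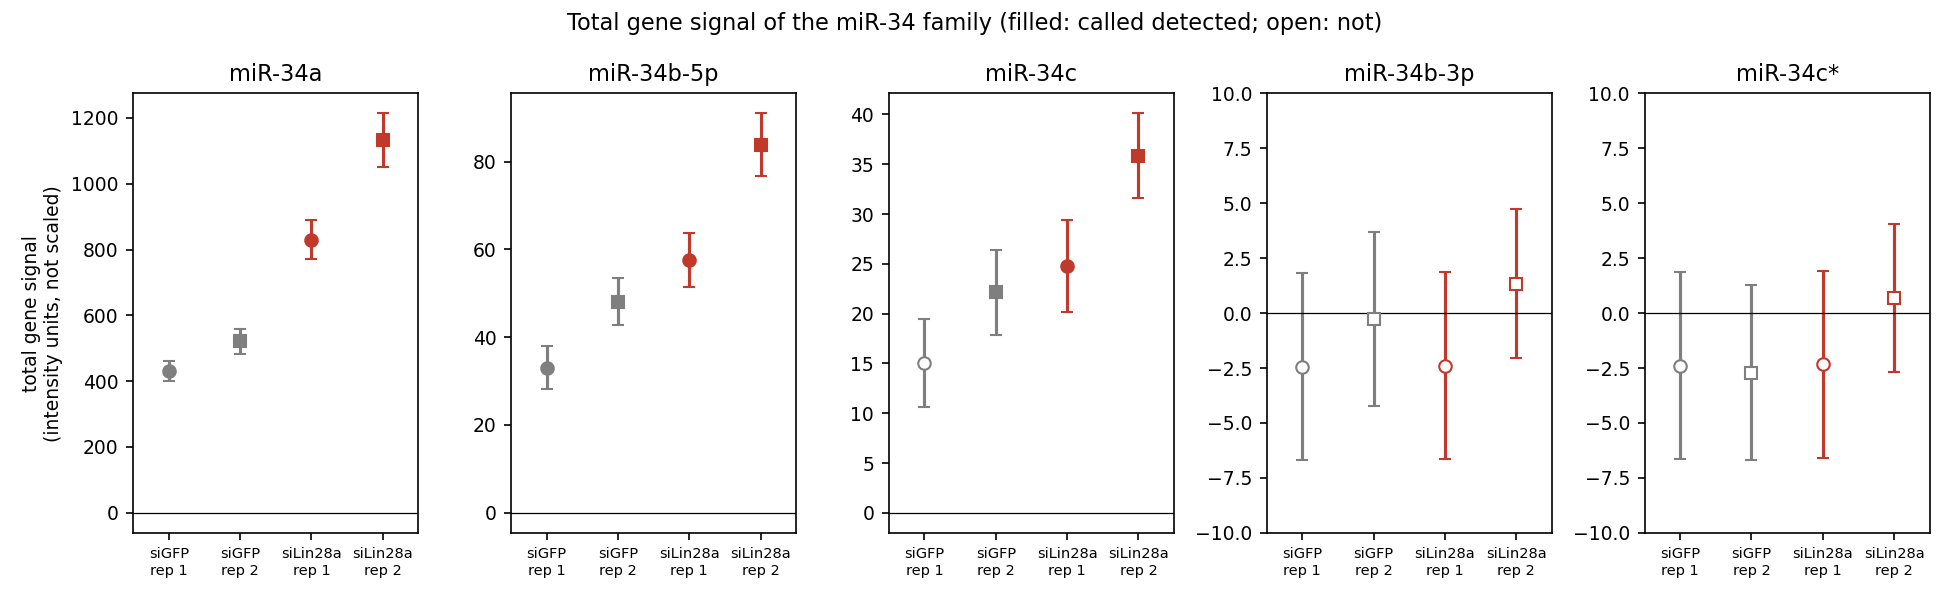
Total gene signal (intensity units, not scaled between arrays) of the 5 members on each of the 4 arrays, with the scanner software's error of that array as the bar. Grey is siGFP and red siLin28a, circles are replicate 1 and squares replicate 2, and open symbols were not called detected. miR-34a reaches 1133 on siLin28a replicate 2, and both 3' arms stay within 3 units of 0.

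Scaling removes the brightness of the arrays and leaves a smaller difference. On the log2 scale after scaling, with both probes averaged, miR-34a had levels of 0.45 and 0.70 with siGFP and 1.22 and 1.55 with siLin28a. The difference was 0.82 (SE 0.16, 95% confidence interval 0.35 to 1.28, limma, n = 2 per group), a fold of 1.76. Its unadjusted p was 0.00927, and 13.4% of tested miRNAs were higher, and 11.3% lower, with an unadjusted p below 0.05. The adjusted p of 0.159 over 231 miRNAs in limma did not pass, and miR-34a ranked 9 of 231 by size of difference and 11 by p. The groups did not overlap, as was the case for 30.7% of tested miRNAs in this direction. With no scaling or with the percentile taken over all probes, non-overlapping miRNAs split 112 higher to 25 lower and 33 to 116, against 71 to 71 here.

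The 2 miR-34a probes, whose targets differ by 1 base in length, gave nearly the same difference. The probe with the 19-base target had scaled log2 signals of 0.27 and 0.54 with siGFP and 1.06 and 1.41 with siLin28a, a difference of 0.82 (SE 0.17). The probe with the 20-base target had 0.63 and 0.85 against 1.39 and 1.70, a difference of 0.81 (SE 0.15). Over 477 probes each had a limma adjusted p = 0.152, and the groups of 31.4% of these probes did not overlap in this direction, against 28.3% in the other. At an unadjusted p below 0.05, 14% of probes were higher and 9.85% lower, and at an adjusted p below 0.05, 0.419% were higher and 0 lower.

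miR-34b-5p, the guide strand of the first hairpin in the other locus, was dim but detected on all 4 arrays. The total gene signal read 33.1 and 48.1 under siGFP, and 57.6 and 83.8 under siLin28a. The siLin28a arrays were again the higher pair, but siGFP replicate 2 came close to siLin28a replicate 1. The means were 40.6 ± 10.6 (SD, n = 2) and 70.7 ± 18.5 (SD, n = 2).

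The fit gave miR-34b-5p a log2 difference of 0.46 (SE 0.20, 95% confidence interval -0.13 to 1.05, limma, n = 2 per group), a fold of 1.38, with an adjusted p of 0.260 in limma. It ranked 33 of 231 by size. Part of this value was set by the floor at -3.40, the log2 level below which scaled signals were not read. The probe with the 21-base target had an unfloored level of -3.79 on siGFP replicate 1, where 0 of 9 spots were well above background, and it entered the fit at the floor. The filter kept this probe through the siLin28a group alone, where 9 of 10 and 10 of 10 spots were well above background. The probe with the 22-base target was above the floor everywhere, at -2.85 and -2.32 with siGFP and -2.16 and -1.75 with siLin28a, and gave 0.63 (SE 0.26, limma adjusted p = 0.253). The difference of miR-34b-5p was 0.25 without siLin28a replicate 2, and -0.054 with the normexp background correction, where its direction turned. With normexp, both its probes fell under the floor of that setting on siGFP replicate 1 and siLin28a replicate 1.

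miR-34c, the guide strand of the second hairpin, lay at the limit of measurement. The total gene signal read 15.0 and 22.1 under siGFP, and 24.8 and 35.8 under siLin28a, and it was called detected on every array but siGFP replicate 1. The arrays stood in the same order as for miR-34b-5p, with siGFP replicate 2 just under siLin28a replicate 1. The software's error for 1 array was 4.26 to 4.60 units, larger than the gap between those arrays. After scaling of the total signals that order turned, at 0.0948 for siGFP replicate 2 and 0.0897 for siLin28a replicate 1, so the groups overlapped.

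No miR-34c probe had 50% or more of its spots well above background on each array of either group, so miR-34c was not tested. On siLin28a replicate 2, 8 of 10 spots of the probe with the 19-base target and 10 of 10 of the other were well above background, against 0 of 10 for both on siGFP replicate 1. In a fit on total gene signals miR-34c entered through its detection call on both siLin28a arrays, the group with the larger signal. It could not enter through the siGFP group, as it was not detected on siGFP replicate 1. The log2 difference of miR-34c was 0.43 there, with an SE of 0.28 and an adjusted p of 0.338 in limma. In that fit of 264 miRNAs 3.03% were called higher and 0 lower. Non-overlapping groups made up 23.1% of them in the higher direction and 35.2% in the lower, and an unadjusted p below 0.05 was reached by 11% and 15.5%. miR-34a and miR-34b-5p had differences of 0.75 (SE 0.17) and 0.52 (SE 0.26) there, with adjusted p-values of 0.101 and 0.256 in limma, and neither overlapped. For miR-34b-5p the groups nearly met, at -2.28 for siGFP replicate 2 and -2.26 for siLin28a replicate 1 on the log2 scale.

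The 3' arms miR-34b-3p and miR-34c* gave no measurable signal. miR-34b-3p read -2.45 and -0.27 units of total gene signal under siGFP, and -2.39 and 1.34 under siLin28a, each with an error of 3.40 to 4.26 units. For miR-34c* they were -2.39 and -2.70 against -2.34 and 0.68, with errors of 3.39 to 4.26. Neither was called detected on any array, and 0 spots of their 4 probes were well above background. All 8 values lay within 1 error of 0, so no fold is given. The short targets of these probes were described above, and their part in the low signal was not tested. The array had no probe by name for the 3' arm of miR-34a.

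**Figure D2:**
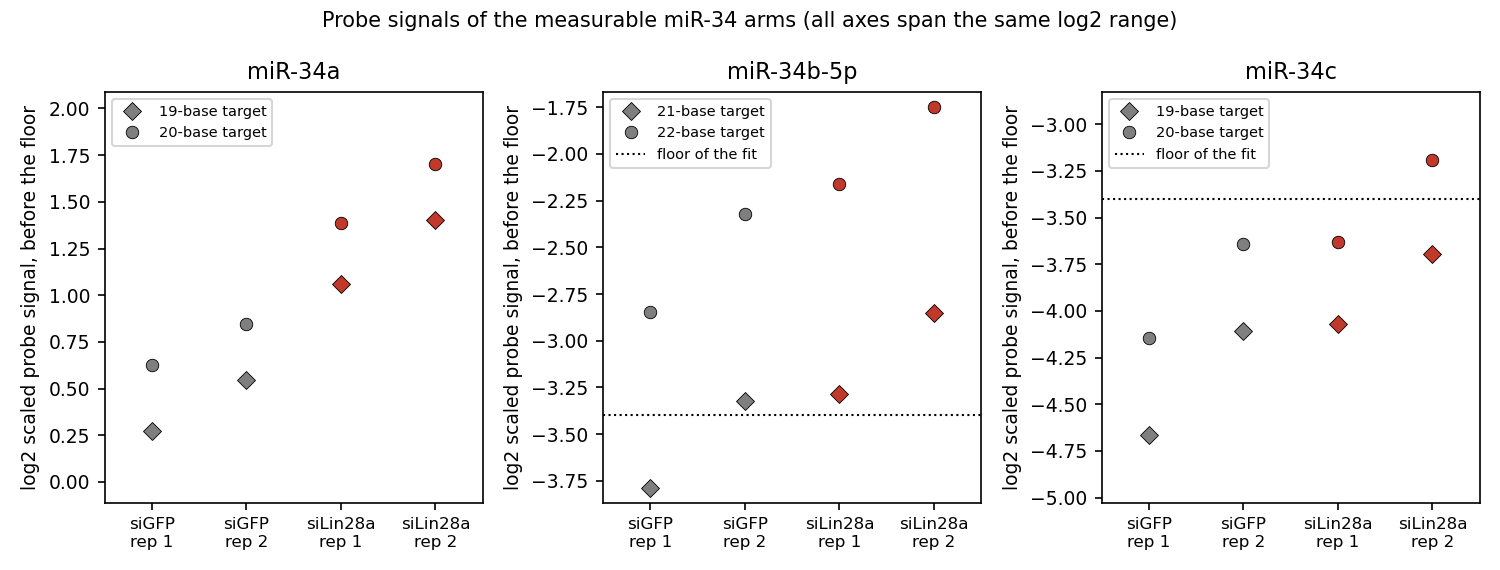
Scaled log2 signal of each probe of the 3 detected members on each array before the floor (dotted line), with siGFP in grey and siLin28a in red. For miR-34a the lowest siLin28a value lies 0.51 or more above the highest siGFP value of the same probe, and for miR-34c, at or under the limit of measurement, by 0.035 or less.

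The loci were compared by their differences between groups, since levels of different probes are not on a common scale. The 22-base probe of miR-34b-5p, the one probe of its locus well above background on all 4 arrays, had a difference of 0.63 with an SE over arrays of 0.33, against 0.82 (SE 0.21) for miR-34a. The other miR-34b-5p probe and both miR-34c probes were not well above background on siGFP replicate 1, nor the miR-34c probes on siGFP replicate 2 and siLin28a replicate 1, so those values are no measured levels. Read before the floor all the same, they had differences of 0.49, 0.50 and 0.48. The lowest siLin28a value lay above the highest siGFP value by 0.51 and 0.54 for the miR-34a probes, by 0.16 for the 22-base probe and by 0.012 to 0.038 for the 3 others. Among the 477 probes tested, with the floor, 31.4% had no overlap in this direction. The gaps were not tested against each other.

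The difference of miR-34a exceeded that of miR-34b-5p by 0.35 on the log2 scale (SE over arrays 0.05) in the floored values of the fit. An exact permutation test over the 4 arrays, two-sided, gave p = 0.333, the smallest it can give with 2 against 2, so this test cannot reach 0.05 here. The SE is narrowed by the floor, which raised miR-34b-5p on siGFP replicate 1. With the probes measurable on all 4 arrays alone the excess was 0.19 (SE 0.15), and with no floor and miR-34c included, chosen after the data were seen, it was 0.29 (SE 0.14), with probes below background in it. With miR-34b-5p alone and 1 array left out, the excess was 0.31 to 0.40. Without siLin28a replicate 1 miR-34c also passed the filter, through siLin28a replicate 2 alone, with both siGFP arrays at the floor. Its difference was only 0.10 there. The excess with it included was 0.59, against 0.31 with miR-34b-5p alone. The excess was 0.69 with no filter, where the undetected arms entered at the floor. It was 0.83 with normexp, where miR-34b-5p was partly at the floor, and 0.18 with the brightest probe (exact permutation p = 0.667).

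Replicate 2 lay above replicate 1 in both groups for every detected member. For miR-34a the scaled log2 level of replicate 2 exceeded that of replicate 1 by 0.25 in the siGFP pair and 0.33 in the siLin28a pair. For miR-34b-5p, floor included, these values were 0.30 and 0.42, close to the difference of 0.46 between the groups.

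**Figure D3:**
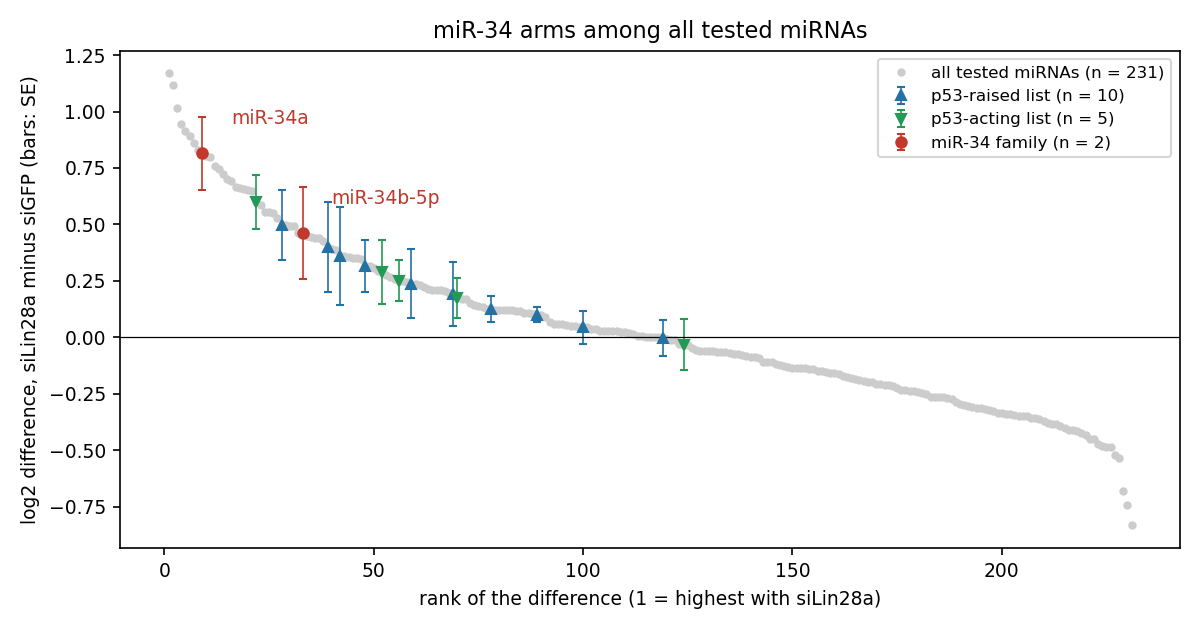
Log2 differences of all 231 tested miRNAs in order of size, with the SE for the 2 tested miR-34 members and for miRNAs of the p53 lists. miR-34a stands at rank 9 and miR-34b-5p at rank 33.

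Other miRNAs with the miR-34 seed gave no signal in these cells. Of the 4 listed names, 3 were on the array, miR-449a, miR-449b and miR-449c, from a locus known for ciliated epithelia. All 3 were detected on 0 of 4 arrays, with total gene signals between -7.47 and -0.99. miR-449b was not matched to a RefSeq sequence. Of the 4 mature entries found with this seed, miR-34a and miR-34b-5p were the ones detected. miR-34c, detected on 3 arrays, is not among those 4, since its sequence was not matched either.

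Other miRNAs described as raised by p53, through transcription or faster processing, had smaller differences than miR-34a. Of 14 listed, 10 were tested, and 0 were called. The groups did not overlap for 7, all higher with siLin28a, against 30.7% of all tested miRNAs in that direction. These 7 include miR-143, which had both siGFP arrays at the floor and so could not have come out lower. The median log2 difference was 0.22, with a range of -0.0039 to 0.50, against a median of 0 over all tested miRNAs. Of the 10 tested, 6 belong to the miR-200 family or are miR-205. The brightest were miR-16 at 0.13 (SE 0.06), miR-107 at 0.04 (SE 0.07), miR-15a at -0.0039 (SE 0.08) and miR-205 at 0.36 (SE 0.22). miR-200c, a keeper of the epithelial state, differed by 0.50 (SE 0.15), with an unadjusted limma p below 0.05. The value for miR-143 was 0.10, which the floor held down, since a probe in its average stood at the floor on every array. Its SE of 0.03 and its unadjusted limma p, also below 0.05, rest on those floored values, so nothing is concluded from them. Before scaling and floor, the total gene signal of miR-143 ran from 19.1 to 20.3 in the siGFP pair. In the siLin28a pair it ran from 35.1 to 37.0.

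The p53-raised members known best from gut epithelium, miR-192, miR-194 and miR-215, were not tested. miR-192 and miR-194 were each detected on 1 array, with total gene signals of 6.27 to 18.3 and 6.28 to 16.9, and miR-215 and miR-145 on 0. The median of this list was 0.42 with no scaling, 0.048 with the percentile over all probes and -0.011 with normexp. Less the median of all tested miRNAs under the same choice, it was 0.23, 0.20 and 0.042.

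miRNAs described as acting on p53 or on its regulators had a median log2 difference of 0.25 over 5 tested of 7 listed, with 4 higher without overlap, against 30.7% of all tested miRNAs in that direction, and 0 called. Less the median of all tested miRNAs, this list stood at 0.23 with the percentile over all probes, 0.26 with no scaling and 0.043 with normexp. miR-29c, which with its relatives is described as raising p53 activity, differed by 0.60 (SE 0.12, limma adjusted p = 0.159), and miR-29b by 0.29 (SE 0.14). miR-25, described as lowering p53, differed by 0.18 (SE 0.09), and miR-30d, likewise, by -0.03 (SE 0.11). miR-125b-5p and miR-504, which target p53, were detected on 0 arrays. The levels of p53 and of its protein-coding targets were not measured by this array. In such bulk RNA, a larger share of cells with a miRNA and more of it per cell cannot be told apart.

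The miRNAs whose log2 profile over the 4 arrays was most like that of miR-34a, by Euclidean distance after centring each on its own mean, were miR-99b (0.13), miR-125a-5p (0.28), miR-721 (0.36), miR-744 (0.38) and miR-680 (0.38), out of 192 candidates measurable on all arrays. Their differences between groups were 0.50 to 0.95, and that of miR-99b was 0.89 (SE 0.22, limma adjusted p = 0.159). For miR-34b-5p the nearest were miR-709 (0.078), miR-30c (0.19), miR-381 (0.21), miR-744 (0.24) and miR-671-5p (0.26), with differences of 0.26 to 0.50. Its own profile was partly set by the floor, at -3.12 on siGFP replicate 1 against -3.32 before the floor. miR-744 stood on both lists.

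Direction and size were steadier for miR-34a than for miR-34b-5p across processing choices. Taking away the median of all tested miRNAs, which moved from -0.16 with the percentile over all probes to 0.19 with no scaling, miR-34a stood at 0.80 and 0.82 under those scalings and at 0.88 with quantile normalization. With 1 array left out it ranged from 0.65 to 0.98 before that subtraction. miR-34b-5p stood at 0.44, 0.47 and 0.38 under the same scalings and at 0 with normexp. In the normexp values both its probes fell under the floor of 0.418 on siGFP replicate 1 and siLin28a replicate 1. The value with normexp was thus partly set by the floor.

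**Figure D4:**
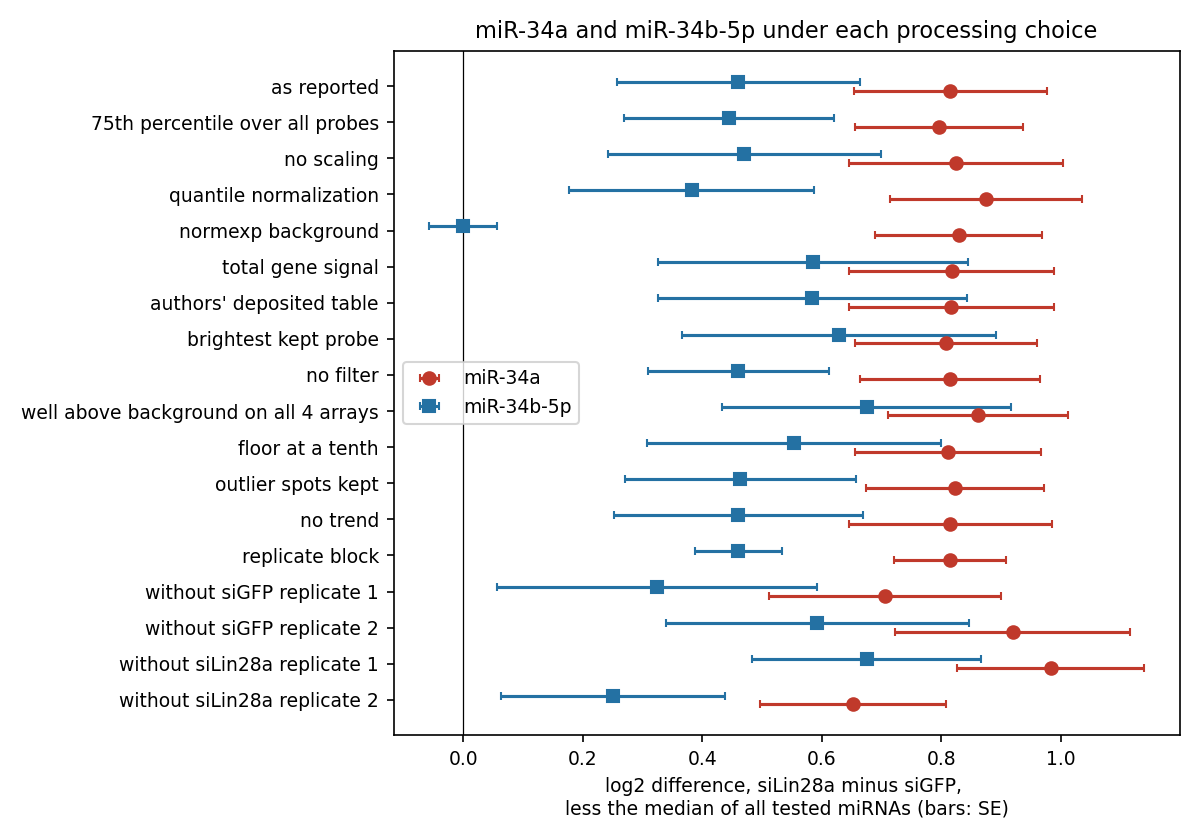
Log2 difference of miR-34a (circles) and miR-34b-5p (squares) less the median of all tested miRNAs, with the SE, under each processing choice. miR-34a stays between 0.65 and 0.98, while miR-34b-5p runs from 0 with normexp, where it was partly at the floor, to 0.68.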

How the data were processed

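Spot intensity, on a linear scale, was taken from the deposited scanner output. Its software was Agilent's Feature Extraction, 9.5.1.1 per the file headers and 9.5.3.1 per the submitters' processing notes. Per the file headers, processed intensity is the spot mean less a background surface, coordinates are build mm9, and all arrays share 1 slide, so no slide block was fitted. The deposited table holds the total gene signal, with values at or below 0 written as 0 (within 5% for 100% of values above 10).

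Here, outlier spots (3.21% to 4.32%) were dropped, spots averaged per probe, and arrays divided by the 75th percentile over 425 probes well above background on all arrays. Values were floored at 0.0948 and taken to log2. Probes well above background (at least 50% of spots) on both arrays of a group were kept, 477 in all, and averaged per miRNA. The comparison used limma (3.58.1, under R 4.3.3) (trend, two-sided, Benjamini-Hochberg over 231 miRNAs, 2 residual and 1.64 prior degrees of freedom). The fit was checked on simulated normal values with no floor, with changes larger than those of the miR-34 members. That check does not cover floored miRNAs or smaller changes. Alternatives varied the scaling, background, floor, filter, probe choice, outlier spots, variance trend, replicate block and arrays, and 2 for the contrast of loci (miR-34b-5p alone, and no floor) were chosen after the data were seen. No spot was saturated, and the number of arrays limits precision.

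The text names all members, called miRNAs, list members by level or unadjusted p, and the 5 nearest profiles. The members and lists were chosen with earlier results of these data known.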

Additional observations from a re-analysis of the deposited data

How the results depend on the processing

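miR-34a kept its direction in all 17 alternatives and stayed uncalled in 16 of them. With no filter on dim probes its difference of 0.82 was called (limma adjusted p = 5.66e-06), as was 0.46 for miR-34b-5p (limma adjusted p = 0.0321), in a fit that took in miRNAs lying at the floor. Over all alternatives the limma adjusted p was 5.66e-06 to 0.481 for miR-34a and 0.0321 to 0.574 for miR-34b-5p. miR-34c, not tested as reported, was called with no filter too, at a difference of only 0.052 (limma adjusted p = 2.29e-05). There, 7 of its 8 probe values over the 4 arrays were at the floor. Without siLin28a replicate 1 its difference was 0.10, with both siGFP arrays at the floor. It passed the filter there through siLin28a replicate 2 alone. On total gene signals and in the deposited table it was not called. miR-34b-5p turned to -0.054 with normexp, which left the scaled signals of its probes at 0.278 to 0.434 on 3 arrays and 0.429 to 0.490 on siGFP replicate 2, against a floor of 0.418. Of all miRNAs, 0 were called with the percentile over all probes, with normexp and with probes measurable on all arrays, 8 with the total gene signal, the deposited table and a lower floor, and 48 with no filter, against 2 as reported. With 1 array left out the count was 0 to 13, the difference 0.65 to 0.98 for miR-34a and 0.25 to 0.68 for miR-34b-5p, and the excess of miR-34a 0.31 to 0.59. The number of family probes called was 0 as reported, where 0.419% of 477 probes were called higher, and 1 with a lower floor. With that lower floor 8 of 231 miRNAs were called, and the share of all probes called was not analysed here. The probe fit with no filter could not be fitted. The p53-raised median was 0.048 with the percentile over all probes, 0.42 with no scaling and -0.011 with normexp. The p53-acting median was 0.076, 0.45 and -0.011 in the same order, and 0.10 with quantile normalization. Less the median of all tested miRNAs, which these scalings move, the lists stood at 0.20 and 0.23 with the percentile over all probes and at 0.23 and 0.26 with no scaling. With 1 array left out these medians were 0.14 to 0.33 and 0.23 to 0.32.

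The labels do not say whether replicates with the same number were paired across the groups, so the reported fit, without a pairing, may leave out a real one. The replicates' deviations from the group means correlated at r = 0.71 over 231 miRNAs, which are not independent replicates. With the replicate number as a block, 2 miRNAs were called, and the differences were 0.82 (SE 0.09) for miR-34a and 0.46 (SE 0.07) for miR-34b-5p, each with a limma adjusted p = 0.0555. Signals of miR-34c and of the 3' arms lie at or under the limit of measurement.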
